A study of Mus musculus with 4 samples.

Results

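The 10 genes described here encode sensors of foreign or misplaced nucleic acid together with the adaptors, the kinase and the transcription factor that carry their signal. They were chosen by gene symbol from the 24346 symbols that each library lists, and all 10 symbols were found. The series holds 4 RNA libraries of HFSCs, cells cultured from hair follicles, with 2 replicates each from passage 10 (10p-HFSCs) and passage 48 (48p-HFSCs). The cells came from the inbred strain C3H/HeN, sorted from adult mouse dorsal skin for CD49f and CD34 and grown without feeder cells in the serum-free medium M-CnT. The labels name no engineered allele and no added agent for either group, which differ by label in the number of passages alone. The labels do not state whether the replicates of a group came from separate cultures, and p-values then measure only the spread between these libraries.

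The cytosolic helicases RIG-I (Ddx58), MDA5 (Ifih1) and LGP2 (Dhx58) bind viral or other double-stranded RNA, and RIG-I and MDA5 pass the signal to the mitochondrial adaptor MAVS (Mavs). TLR3 (Tlr3) detects double-stranded RNA in endosomes, cGAS (Mb21d1) detects cytosolic DNA and makes a cyclic dinucleotide that activates the adaptor STING (Tmem173), and ZBP1 (Zbp1) binds nucleic acid in the left-handed Z form. The MAVS, STING and TLR3 routes converge on the kinase TBK1 (Tbk1), which phosphorylates the transcription factor IRF3 (Irf3), an activator of interferon genes. Keratinocytes are known to express several of these sensors, and several of the genes are themselves induced by interferon.

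Values are FPKM, by definition the number of fragments corrected for exon length and for the library's mapped total. The correction for length lets levels be compared between genes. The values here already stood near a median-of-ratios scale, which sets the typical gene equal across libraries. Whether they were divided by the mapped total was not tested. The plot of all 10 genes by library shows the levels as log2(FPKM + 1), and groups were compared on this scale with limma over the 11018 genes that reached an FPKM of 1 in 2 or more libraries. A gene was called higher or lower in 48p-HFSCs at a Benjamini-Hochberg adjusted p-value under 0.05 with a log2 difference of at least 1 in size. Of the 10 genes, 9 passed the filter on low values and Dhx58 did not. Zbp1, Ifih1 and Tmem173 passed it through the 48p-HFSC libraries alone. One of the 9, Zbp1, was called higher, where 10.8% of all genes tested were, and 2, Tlr3 and Mavs, were called lower, where 9.15% of all genes tested were. The other 6 were not called, and the counts are too small to be set apart from these background shares. Over all genes tested, 1189 were called higher and 1008 lower, and after rescaling to TPM, a unit in which every library sums to the same total, 623 and 812 were. For 1 gene alone, 2 libraries against 2 allow no two-sided exact permutation p below 0.33, and the calls depend on limma's pooling of variance over genes.

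**Figure D1:**
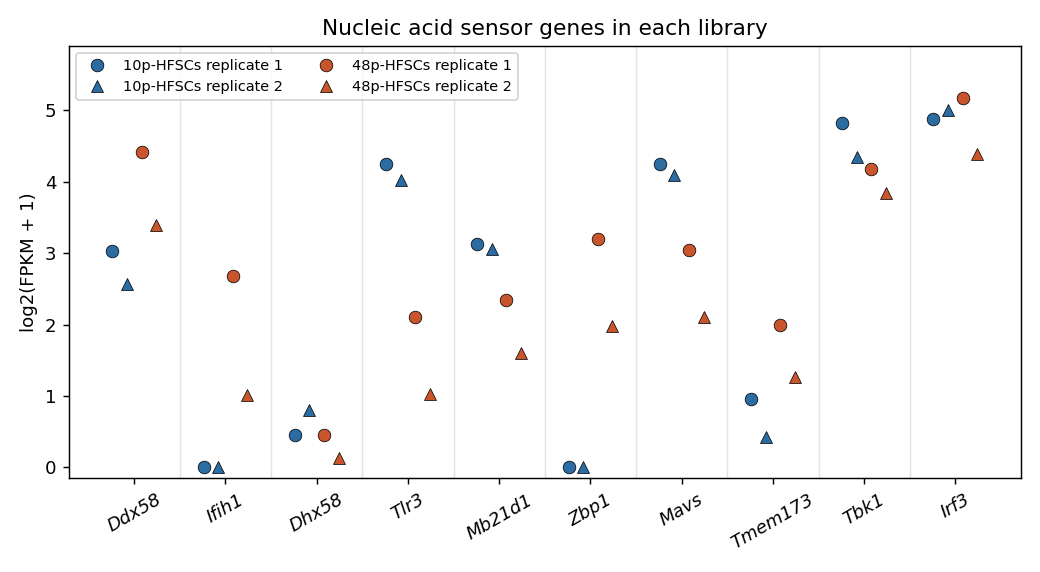
Levels of the 10 nucleic acid sensor genes in each library. The vertical axis is log2(FPKM + 1), circles and triangles are replicates 1 and 2, blue is 10p-HFSCs and orange is 48p-HFSCs. Ifih1 and Zbp1 sit at 0 in both 10p-HFSC libraries, Tlr3 and Mavs lie lower in both 48p-HFSC libraries, and replicate 2 of 48p-HFSCs lies below replicate 1 in all 10 genes.

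The libraries differed in precision and in composition. The FPKM values summed to between 581516 and 719012 in 3 libraries and to 1414953 in replicate 2 of 48p-HFSCs. In that library the most common ratio of low FPKM values to those of replicate 1 of 10p-HFSCs was also the highest, 2.14. This ratio reflects how the values were scaled and is not a count of mapped reads. In all 10 sensor genes replicate 2 of 48p-HFSCs lay below replicate 1, by 1.27-fold in Tbk1 to 5.37-fold in Ifih1, while this was so for 48.7% of all genes tested. By transcript length, replicate 2 of 48p-HFSCs was the lower one for 67.6% of tested genes with 3960 bases or more. This was so for 50.5% of those with 2252 to 3959 bases and for 28.3% of those with up to 2251 bases. Ifih1, Tlr3 and Mb21d1 are in the longest range, Zbp1 and Irf3 in the shortest and the other sensor genes in the middle one. In 10p-HFSCs replicate 2 was the lower one in 6 of the 10, and in 49.3% of all genes tested. The longest transcripts of the 10 genes in the annotation ranged from 1989 bases for Zbp1 to 5470 bases for Ifih1. The part of transcript length in the spread of these genes was not tested, and differences after a correction for length and GC content are given beside the results where they bear on a call.

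The labelled cell type was checked against marker genes. All 6 basal keratinocyte markers were present, with Krt5 between 1473 and 8156 FPKM. Of these, Itga6 and Itgb4 were called higher (limma adjusted p = 0.0143 and 0.0487). Both calls were lost after rescaling to TPM (limma adjusted p = 0.138 and 0.514). That of Itgb4 was also lost with a mean FPKM of at least 1, with quantile normalization and with a constant variance prior (limma adjusted p = 0.0555, 0.0883 and 0.0534). Of 6 hair follicle stem cell markers, Sox9 was called lower, from 45.6 and 44.2 to 20.2 and 8.31 FPKM (limma adjusted p = 0.0389), and Krt15 was measured at 136 and 82.6 before and 425 and 18.8 after, so that it set the 48p-HFSC replicates far apart, while Cd34, the marker used for sorting, had an FPKM between 0.093 and 0.234 in the 4 libraries and Lhx2, Lgr5 and Nfatc1 stayed under 0.1. Without the filter the calls of Itgb4 and Sox9 were lost (limma adjusted p = 0.0599 and 0.0852). By qRT-PCR, the paper reports higher Sox9 and Lhx2 after long culture, with Cd34 and Krt15 maintained. It also reports that most of the long-cultured cells stained for the CD34 protein. The direction of Sox9 in these libraries was the opposite and Cd34 and Lhx2 were low in all of them. The reason was not tested. Of 13 leukocyte markers, which matter because leukocytes are rich in these sensors, 10 had an FPKM under 0.1 in every library, including Ptprc, Cd3e, Tyrobp, Itgam, Itgax, Flt3 and the Langerhans cell marker Cd207. The others were Csf1r, Cd68 and Lyz2. Csf1r was above 1 FPKM in every library, at 1.28 and 1.13 before and 3.39 and 1.62 after, and was not called (limma adjusted p = 0.214). The summed leukocyte marker level was 8.92 and 8.50 FPKM at passage 10 against 59.8 and 82.4 at passage 48, of which Cd68, a lysosomal protein not limited to leukocytes, made up 53.2 and 78.7, and Cd68 and Lyz2 were called higher (limma, adjusted p = 0.00202 and 0.0225). Lyz2 passed the filter through 48p-HFSCs alone. Its call was lost with the length and GC correction (difference 0.94, limma adjusted p = 0.0851) and after rescaling to TPM (limma adjusted p = 0.13). Of 5 melanocyte markers none was called by limma, with Tyr at 0.095 and 0.286 before and 1.33 and 9.48 FPKM after (adjusted p = 0.0834, unadjusted p under 0.05). Of 4 endothelial markers none was called either, with Pecam1 at 2.38 and 2.24 before and 1.01 and 0.172 FPKM after (limma adjusted p = 0.061, unadjusted p under 0.05). Of 7 fibroblast markers only Vim and Col1a2 passed the filter and both were called lower, with Vim falling from 284 and 327 FPKM to 2.35 and 3.08 and Col1a2 from 67.6 and 59.3 to 0 in both 48p-HFSC libraries. Col1a2 passed the filter through 10p-HFSCs alone. The other 5 fibroblast markers stayed under 1 FPKM in every library, with Dcn and Lum at 0. The part of any other cell type in the results below was not tested, and in bulk RNA fewer cells of a type and less RNA per cell cannot be told apart.

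Promoter sequences are shown for Ddx58 and Ifih1, RNA sensors that were higher in both 48p-HFSC libraries but were not called. Those of Tlr3 and Mavs, which were called lower, are given so that the start regions can be read side by side. Each is the RefSeq window on GRCm38.p6 (the assembly of mm10) from 250 bases before to 50 bases after the start site, written 5′ to 3′ along the gene. For Tlr3 this RefSeq start lies inside the gene's span in the GENCODE annotation used for positions. Capitals mark the core of the interferon-stimulated response element, searched on both strands as GAAA, any 2 bases (NN) and GAAA again.
Ddx58 promoter, chr4:40239776-40240075, minus strand: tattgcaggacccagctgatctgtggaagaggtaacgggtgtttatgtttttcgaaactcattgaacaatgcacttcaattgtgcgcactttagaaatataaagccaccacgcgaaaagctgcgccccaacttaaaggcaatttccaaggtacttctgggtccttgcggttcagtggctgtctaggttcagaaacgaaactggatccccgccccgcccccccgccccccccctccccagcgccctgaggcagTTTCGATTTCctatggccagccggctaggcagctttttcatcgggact
Ifih1 promoter, chr2:62646206-62646505, minus strand: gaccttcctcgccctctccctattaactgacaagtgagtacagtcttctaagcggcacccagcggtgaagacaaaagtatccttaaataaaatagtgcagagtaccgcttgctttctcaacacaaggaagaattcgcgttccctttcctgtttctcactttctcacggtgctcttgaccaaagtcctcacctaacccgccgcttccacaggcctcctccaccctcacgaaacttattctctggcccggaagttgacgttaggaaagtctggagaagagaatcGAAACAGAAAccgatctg
Tlr3 promoter, chr8:45410331-45410630, minus strand: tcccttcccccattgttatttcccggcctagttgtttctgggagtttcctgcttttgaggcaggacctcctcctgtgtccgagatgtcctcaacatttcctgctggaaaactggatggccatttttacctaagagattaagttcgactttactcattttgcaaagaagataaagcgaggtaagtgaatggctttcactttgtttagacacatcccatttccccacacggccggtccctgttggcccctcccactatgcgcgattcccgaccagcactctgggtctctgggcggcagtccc
Mavs promoter, chr2:131233813-131234112, plus strand: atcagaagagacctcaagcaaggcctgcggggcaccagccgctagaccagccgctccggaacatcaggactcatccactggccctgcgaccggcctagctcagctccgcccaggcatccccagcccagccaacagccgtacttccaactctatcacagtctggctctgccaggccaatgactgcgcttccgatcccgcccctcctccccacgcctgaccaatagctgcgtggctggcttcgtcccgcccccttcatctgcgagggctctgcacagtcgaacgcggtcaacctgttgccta
No window was found for Dhx58, for Tmem173 or for Zbp1, the one gene called higher, so the windows cannot relate motif to direction. A window was found for 7 of the 10 genes, those printed and Mb21d1, Tbk1 and Irf3. Of these 7, the Ddx58 and Ifih1 windows held this core, 1 match each, against 3.44% of 32851 promoter windows of the same length. In Ddx58 the match began at base 3 after the start site on the opposite strand, and in Ifih1 at base 33 after the start site on the gene's strand. The gamma-activated site letters TTCNNNGAA, which read the same on both strands and were found in 8.30% of all windows, were in none of the 7. A match of letters is a description of the sequence and not evidence of binding.

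Among the cytosolic RNA sensors, Ifih1 and Ddx58 lay higher in 48p-HFSCs without being called. Ifih1, on chromosome 2 of GRCm38 from 62595798 to 62646255 on the minus strand, was listed at 0 by both 10p-HFSC replicates, and 48p-HFSC replicates 1 and 2 gave 5.44 and 1.01 FPKM. Its log2 difference was 1.85 (standard error 0.54, 95% interval 0.53 to 3.17), with a limma adjusted p of 0.061. Ifih1 passed the filter only through the group where it is high, and its tied zeros add no spread to the fit. No fold change can be given against 0, and the fitted difference depends on the 1 added to each value, being 4.63 with 0.1 added (limma adjusted p = 0.0134). The gene was also called under 7 other alternatives, among them the correction for length and GC content with a difference of 2.09 (limma adjusted p = 0.0269). Leaving out replicate 1 of 48p-HFSCs gave a difference of 1.01 and leaving out replicate 2 gave 2.69, so the size of the difference rests on which of the 48p-HFSC libraries is used.

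Ddx58, on chromosome 4 from 40203773 to 40239828 on the minus strand, was measured at 7.16 and 4.96 FPKM in the 10p-HFSC libraries, against 20.4 and 9.47 in the 48p-HFSC libraries. The 48p-HFSC values were the upper pair, and the mean was 2.46-fold higher, 14.9 ± 7.70 against 6.06 ± 1.56 (SD, n = 2 each). The log2 difference of 1.10 (standard error 0.42, 95% interval 0.08 to 2.12) was not called, with a limma adjusted p of 0.114. Of the 14 alternatives, 3 called it. One of these was the correction for length and GC content, added after the values were seen (1.28, limma adjusted p = 0.0429). After rescaling to TPM the difference was 0.61 (limma adjusted p = 0.633), or 1.16 relative to the median of all genes tested. Without replicate 1 of 48p-HFSCs it was 0.59.

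Dhx58, the relative of both helicases that lacks their signaling domains, stayed low in every library. Its FPKM was 0.376 and 0.742 before, 0.374 and 0.095 after long culture, and it lies on chromosome 11 from 100694884 to 100704271. The highest 48p-HFSC value lay just below the lowest 10p-HFSC value. In a fit without the filter its log2 difference was -0.34 (limma adjusted p = 0.285).

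Tlr3, the endosomal RNA sensor, fell in 48p-HFSCs. It lies on chromosome 8 from 45395665 to 45411080 on the minus strand and was measured at 18.1 and 15.3 FPKM in the 10p-HFSC libraries, against 3.32 and 1.04 in the 48p-HFSC libraries. The groups were far apart, and the mean was 7.65-fold lower, 2.18 ± 1.61 against 16.7 ± 1.98 (SD, n = 2 each). The log2 difference was -2.57 (standard error 0.41, 95% interval -3.59 to -1.55, limma adjusted p = 0.0111). It lay beyond the range from -1.58 to 1.99 that held the middle 90% of genes tested, as the plot of differences shows. The 565 tested genes of chromosome 8 had a median log2 difference of -0.61, against -0.03 over all genes tested, and the part of the chromosome in the fall of Tlr3 was not tested. After correction for length and GC content the difference was -2.39 (limma adjusted p = 0.00589), but the call was lost when either 10p-HFSC library was left out (limma adjusted p = 0.196 without replicate 1 and 0.158 without replicate 2).

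**Figure D2:**
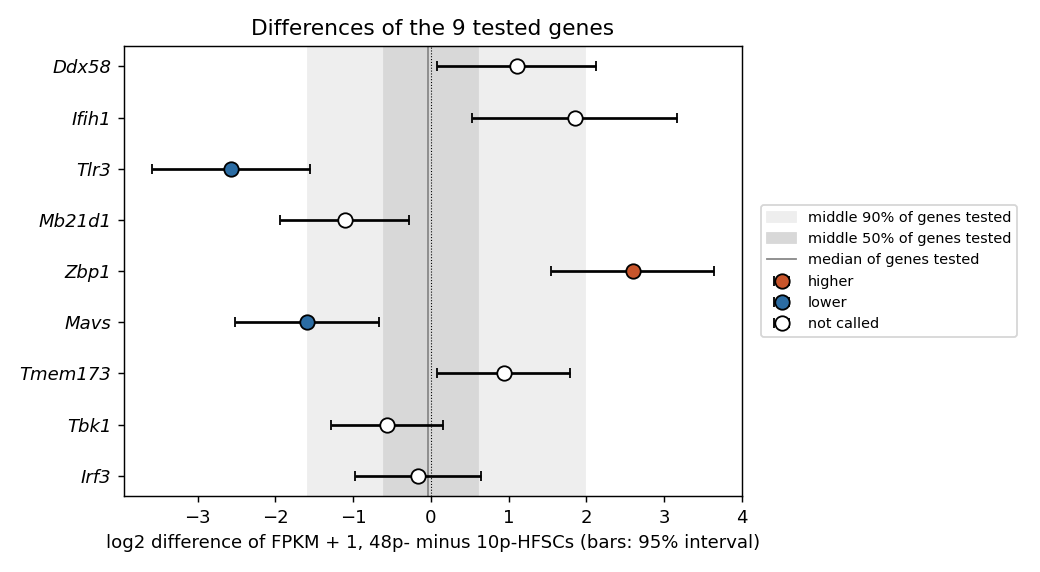
Log2 differences of the 9 tested genes, 48p- minus 10p-HFSCs on the log2(FPKM + 1) scale, with 95% intervals from limma. Grey bands show where the middle 50% and 90% of all 11018 genes tested lie. Zbp1 (2.59, orange) was called higher and Tlr3 (-2.57) and Mavs (-1.59, both blue) lower, while Tbk1 (-0.57) and Irf3 (-0.16) lie within the band of the middle 50%.

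The main RNA sensor transcript within a library was another one in each group. Of the summed FPKM of the 4 RNA sensors, Tlr3 made up 70.6% and 72.8% at passage 10, but 11.2% and 8.95% at passage 48. Ddx58 made up 28.0% and 23.6% at passage 10, and its share at passage 48 was 69.1% and 81.5%. Ifih1 contributed 0% in both 10p-HFSC libraries and 18.4% and 8.71% in 48p-HFSCs. The ratio of Ddx58 to Tlr3 was 0.396 and 0.325 at passage 10 and 6.14 and 9.10 at passage 48. A ratio within a library does not depend on how the library was scaled, and it shows unequal change rather than the change of either gene. The 4 sensors together summed to 25.6 and 21.0 FPKM at passage 10, against 29.5 and 11.6 at passage 48, so that the groups overlapped in the sum.

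**Figure D3:**
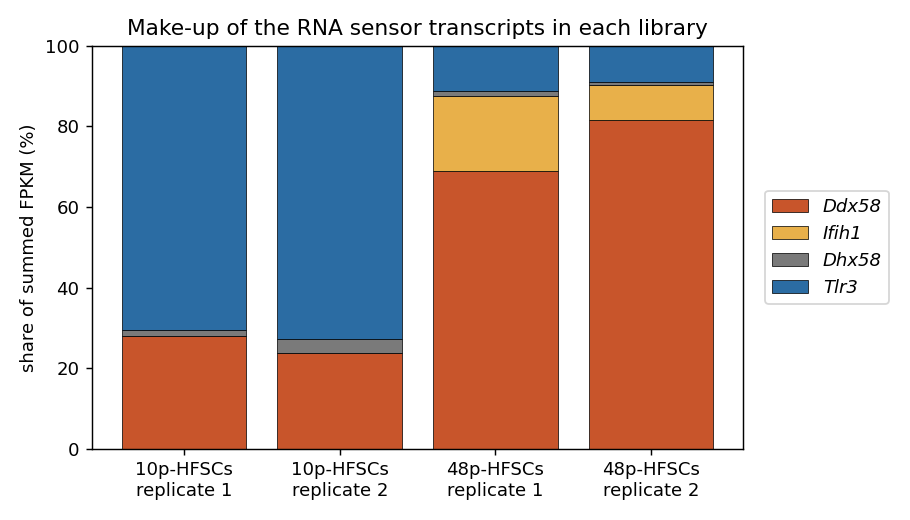
Share of each RNA sensor gene in the summed FPKM of Ddx58, Ifih1, Dhx58 and Tlr3, in percent, 1 bar per library. Tlr3 (blue) takes 70.6% and 72.8% of the 10p-HFSC bars, and Ddx58 (orange) takes 69.1% and 81.5% of the 48p-HFSC bars.

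Mavs, the adaptor that the cytosolic RNA helicases share, fell. It lies on chromosome 2 from 131234063 to 131248025 on the plus strand and was measured at 17.9 and 16.1 FPKM in the 10p-HFSC libraries, against 7.26 and 3.32 in the 48p-HFSC libraries. The groups did not overlap, and the mean was 3.22-fold lower, 5.29 ± 2.79 against 17.0 ± 1.28 (SD, n = 2 each). The log2 difference was -1.59 (standard error 0.38, 95% interval -2.52 to -0.67, limma adjusted p = 0.0347). This call was the least stable of the 3, since it was lost without replicate 2 of 48p-HFSCs (difference -1.12, limma adjusted p = 0.0546), without either 10p-HFSC library (limma adjusted p = 0.364 and 0.291), without the filter on low values (limma adjusted p = 0.0785) and after rescaling to TPM (limma adjusted p = 0.0857).
Ddx58, which was not called, and Mavs, a receptor and its adaptor, differed in opposite directions. The ratio of Ddx58 to Mavs was 0.400 and 0.308 at passage 10 and 2.80 and 2.86 at passage 48. The 48p-HFSC libraries, which differed by 2.15-fold in Ddx58 and 2.19-fold in Mavs, thus had nearly the same ratio. The ratio of Ifih1 to Mavs was 0 in both 10p-HFSC libraries and 0.749 and 0.305 in 48p-HFSCs. That of Tlr3 to Ticam1, which encodes the TLR3 adaptor TRIF, was 1.36 and 1.04 at passage 10 and 0.198 and 0.104 at passage 48, with Ticam1 itself between 10.0 and 16.8 FPKM in the 4 libraries.

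The DNA sensing pair showed the reverse arrangement, with a lower sensor and a higher adaptor in 48p-HFSCs, and neither was called. Mb21d1, on chromosome 9 from 78430526 to 78443237 on the minus strand, was measured at 7.71 and 7.32 FPKM in the 10p-HFSC libraries, against 4.10 and 2.05 in the 48p-HFSC libraries. Its log2 difference was -1.11 (standard error 0.34, 95% interval -1.94 to -0.28, limma adjusted p = 0.069). All of its 48p-HFSC values lay below its 10p-HFSC values, and without replicate 1 of 48p-HFSCs it was called (-1.48, limma adjusted p = 0.0199), while without replicate 2 the difference was -0.74 (limma adjusted p = 0.108).
Tmem173, on chromosome 18 from 35733679 to 35740554 on the minus strand, was measured at 0.940 and 0.345 FPKM in the 10p-HFSC libraries, against 2.98 and 1.41 in the 48p-HFSC libraries. Its log2 difference was 0.94 (standard error 0.35, 95% interval 0.08 to 1.79, limma adjusted p = 0.11). The groups did not overlap, but the levels were low and the difference was not called under any of the 14 alternatives. The ratio of Mb21d1 to Tmem173 was 8.19 and 21.2 at passage 10 and 1.37 and 1.46 at passage 48.

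Zbp1, the sensor of Z-form nucleic acid, rose. It lies on chromosome 2 from 173206612 to 173218923 on the minus strand, was listed at 0 by each 10p-HFSC replicate, and reached 8.21 and 2.96 FPKM after 48 passages. The log2 difference was 2.59 (standard error 0.42, 95% interval 1.55 to 3.64, limma adjusted p = 0.0117), and as for Ifih1 it depends on the added 1, being 5.66 with 0.1 added. Zbp1 passed the filter only through the group where it is high, and its tied zeros add no spread. Its standard error and adjusted p therefore rest on the 48p-HFSC pair and on the variance pooled over genes. Without replicate 1 of 48p-HFSCs the difference was 1.98 (limma adjusted p = 0.00426), and without replicate 2 it was 3.20 (limma adjusted p = 0.00325). The call was lost when either 10p-HFSC library was left out (limma adjusted p = 0.18 and 0.164), although both are at 0 and the difference did not move. Of its 2 partners in necroptosis, a form of lytic cell death, neither was called higher. Ripk3, the kinase that ZBP1 recruits, was listed at 0 in 3 libraries and at 0.063 in replicate 2 of 48p-HFSCs, and Mlkl, the executioner protein, was called lower, from 45.9 and 39.1 FPKM to 20.6 and 18.0 (log2 difference -1.10, limma adjusted p = 0.0311), a call that was lost without replicate 2 of 48p-HFSCs (limma adjusted p = 0.0601).

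Tbk1 and Irf3, on which the routes converge, had the highest mean FPKM of the 10 genes in both groups and were not called, though in 48p-HFSCs the values of Tbk1 and Ddx58 overlapped. Tbk1, on chromosome 10 from 121546455 to 121586787 on the minus strand, was measured at 27.2 and 19.3 FPKM in the 10p-HFSC libraries, against 17.0 and 13.4 in the 48p-HFSC libraries. Its log2 difference was -0.57 (standard error 0.29, 95% interval -1.29 to 0.15, limma adjusted p = 0.211). Both 48p-HFSC values lay below the 10p-HFSC values, but the gap was within the spread of the 10p-HFSC replicates.
Irf3, on chromosome 7 from 44997648 to 45002848 on the plus strand, was measured at 28.3 and 30.9 FPKM in the 10p-HFSC libraries, against 34.9 and 19.9 in the 48p-HFSC libraries. It was the one tested gene of the 9 whose groups overlapped, with a log2 difference of -0.16 (standard error 0.33, 95% interval -0.97 to 0.65, limma adjusted p = 0.748). The interval still allows a change of up to nearly 2-fold downward, and the sign turned without replicate 2 of 48p-HFSCs (0.23, limma adjusted p = 0.432).

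Over the 9 tested genes, the 48p-HFSC replicates were the upper pair in 4 and the lower pair in 4, which held for 31.7% and 34.3% of all genes tested. Their median log2 difference was -0.16, against -0.03 over all genes tested. The order of the levels changed between groups. In 10p-HFSCs it ran Irf3, Tbk1, Mavs, Tlr3, Mb21d1, Ddx58, Tmem173, Dhx58, and then Ifih1 and Zbp1 at 0. Of these neighbours, Mavs and Tlr3 overlapped, as did Tmem173 and Dhx58. In 48p-HFSCs it ran Irf3, Tbk1, Ddx58, Zbp1, Mavs, Ifih1, Mb21d1, Tmem173, Tlr3 and Dhx58. Tbk1 and Ddx58 overlapped there, and each neighbouring pair from Zbp1 to Tlr3 did too. Of the neighbours there, Irf3 and Tbk1, Ddx58 and Zbp1, and Tlr3 and Dhx58 did not overlap, but Ddx58 in replicate 1 lay above Irf3 in replicate 2.
Some of these genes share exon sequence with a gene on the other strand in the annotation. The overlap is 381 bases for Tlr3 with Gm45542, 201 for Mb21d1 with Gm8093, 141 for Dhx58 with Dhx58os and 88 for Irf3 with Bcl2l12. The libraries were stranded, but the strand setting of the counting is not given in the sources used here, so reads of these stretches may belong to either gene.

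The genes around the sensors were taken as 7 lists by role, 99 genes in all, of which 69 passed the filter. Of these, 10 were called higher and 3 lower, 14.5% and 4.35% against the 10.8% and 9.15% of all genes tested. Their median log2 difference was -0.15. With replicate 2 of 48p-HFSCs left out, 9 were called higher and 1 lower, with replicate 1 left out 13 and 10, and with either 10p-HFSC library left out none. After rescaling to TPM, 7 of the 13 calls were lost (Prkra, Itch, Aim2, Azi2, Irf1, Optn and Mlkl).

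Among the signaling intermediates of TBK1 and IRF3, 5 of 17 tested genes rose, 1 fell and 11 were not called. The counts of this and the following lists are descriptions to be read against the 10.8% and 9.15% of all genes tested, and no list was tested against other genes. Irf5, Pyhin1, Dnase2a and Rnaset2a passed the filter through 48p-HFSCs alone. Their 10p-HFSC values at or near 0 add next to no spread to the fits. Of the 10p-HFSC libraries, only replicate 2 reached an FPKM of 1 in Ikbke, so this gene met the filter only with 48p-HFSCs. Ikbke, the closest relative of Tbk1, rose from 0.652 and 1.37 FPKM to 16.3 and 14.1 (log2 difference 3.03, limma adjusted p = 0.00234). The ratio of Ikbke to Tbk1 was 0.024 and 0.071 at passage 10 and 0.955 and 1.05 at passage 48, so that both kinase transcripts reached a like level after 48 passages. Irf7, the relative of Irf3 that amplifies interferon production, rose from 6.68 and 6.14 to 64.1 and 50.1 FPKM (log2 difference 2.96, limma adjusted p = 0.00161), and its ratio to Irf3 went from 0.236 and 0.199 to 1.84 and 2.52. Irf5, which activates inflammatory and interferon genes, went from a listed 0 in each 10p-HFSC replicate to 3.15 and 2.84 FPKM (limma adjusted p = 0.00332). Irf1, another interferon regulatory factor, rose from 32.9 and 29.0 to 80.7 and 80.2 FPKM (limma adjusted p = 0.0159). Optn, an adaptor that binds TBK1 and ubiquitin chains, rose from 5.26 and 5.41 to 30.8 and 23.8 FPKM (log2 difference 2.15, limma adjusted p = 0.00473). Azi2, another TBK1-binding adaptor, fell from 21.5 and 22.6 to 8.95 and 9.18 FPKM (log2 difference -1.20, limma adjusted p = 0.0237). In each of these 6 genes the 48p-HFSC replicates stood closer together than those of Ddx58, and the groups did not overlap.

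**Figure D4:**
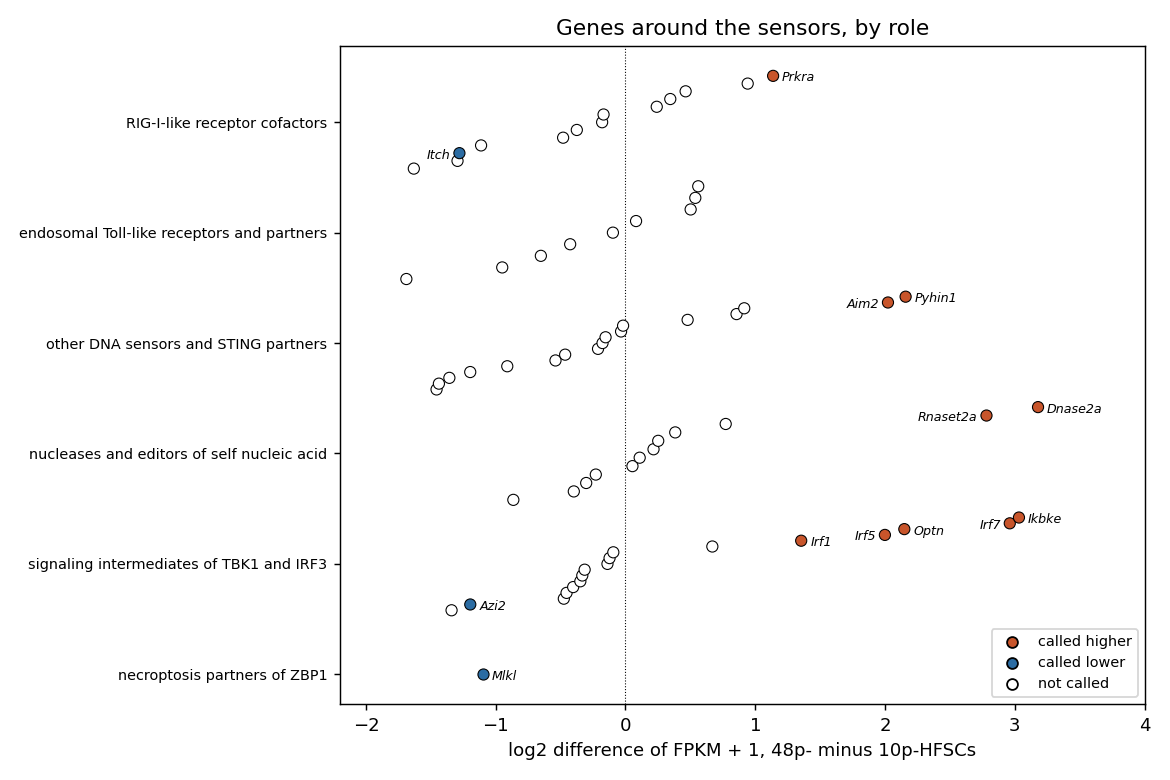
Log2 differences, 48p- minus 10p-HFSCs on the log2(FPKM + 1) scale, of the 69 tested genes around the sensors, 1 point per gene, by role. Orange points were called higher and blue points lower. The 5 genes called higher among the signaling intermediates lie between 1.35 and 3.03, and none of the endosomal Toll-like receptor partners was called.

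Among the other DNA sensors and STING partners, 2 of 17 tested genes rose and none was called lower. Aim2, a DNA sensor that assembles an inflammasome, rose from 12.2 and 11.1 FPKM to 42.4 and 59.7 (log2 difference 2.02, limma adjusted p = 0.0064). It was the one called gene of this list that was well above 0 in 10p-HFSCs, and it stood above Mb21d1 in all 4 libraries. Pyhin1, of the same family of interferon-inducible proteins, rose from 0.015 and 0.021 to 5.16 and 2.35 FPKM (limma adjusted p = 0.0104), and as genes of its family are close copies in the mouse, the assignment of reads among them is uncertain.

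Among nucleases and editors that remove or mark the cell's own nucleic acid, 2 of 12 rose and none was called lower. Dnase2a, a lysosomal DNase, went from a listed 0 in each 10p-HFSC replicate to 9.09 and 7.12 FPKM (limma adjusted p = 0.00124). Rnaset2a, a lysosomal RNase, went from under 0.01 to 2.08 and 14.5 FPKM (limma adjusted p = 0.0451), while its near-identical copy Rnaset2b was at 1.87 and 4.37 and then at 3.65 and 0.00024, so that the division of reads between them is uncertain. The Rnaset2a call was lost without the filter (limma adjusted p = 0.111), with a mean FPKM of at least 1 (0.0509), with quantile normalization (0.0543) and with a constant variance prior (0.0559). Its log2 difference was 3.94 without replicate 1 of 48p-HFSCs and 1.62 without replicate 2. The other 10 tested genes, among them Trex1, Samhd1 and Adar, were not called and differed by -0.86 to 0.77 on the log2 scale.

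Of the RIG-I-like receptor cofactors, 1 of 13 tested genes rose, 1 fell and 11 were not called. Prkra, an activator of RIG-I signaling and of the kinase PKR, rose from 8.18 and 7.37 FPKM to 16.0 and 20.9 (log2 difference 1.14, limma adjusted p = 0.0369), and Itch, a ubiquitin ligase that acts on MAVS, fell from 24.5 and 15.3 to 8.62 and 6.34 (log2 difference -1.28, limma adjusted p = 0.0455). Both calls were lost without replicate 2 of 48p-HFSCs (limma adjusted p = 0.0761 and 0.135), and that of Itch also without replicate 1 (limma adjusted p = 0.0529). With the length and GC correction the difference of Prkra was 0.85, under the limit of 1, and without the filter its limma adjusted p was 0.0619 and that of Itch was 0.0847.
Of the endosomal Toll-like receptors and their partners, 9 of 14 were tested and none was called by limma, although 2 had an unadjusted p-value under 0.05. The other nucleic acid receptors of this family, Tlr7, Tlr8, Tlr9 and Tlr13, did not exceed 0.054 FPKM in a single library, so Tlr3 was the one endosomal receptor of the lists with a level above 1.
Transcripts of the interferons themselves were nearly absent. Of 20 type I and type III interferon genes, 18 were listed at 0 in every library, including Ifnb1 and all 13 Ifna genes, and the other two, Ifne and Ifnl3, reached at most 0.148 and 0.275 FPKM.

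**Figure D5:**
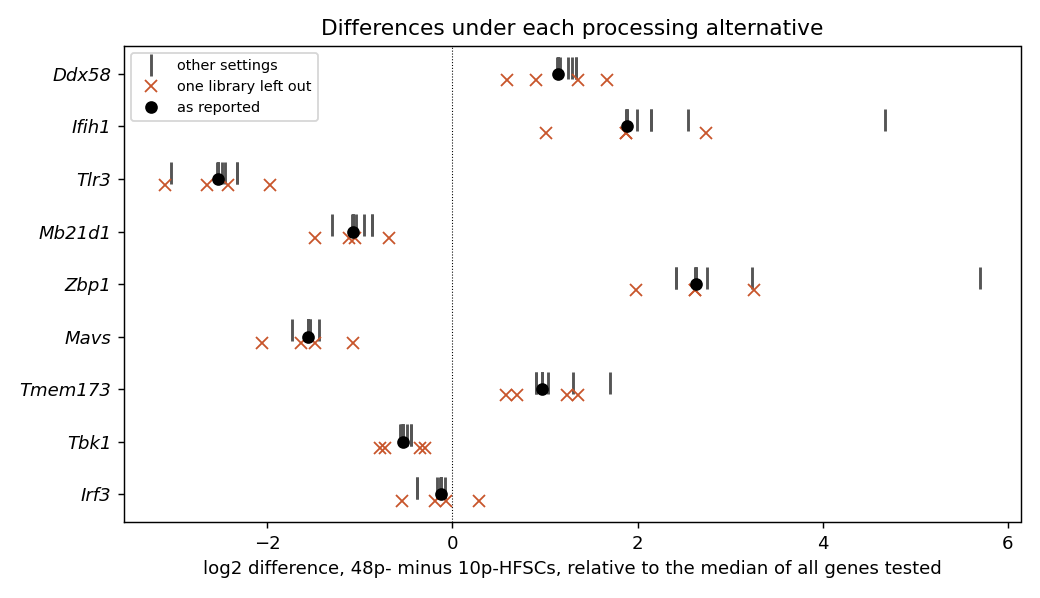
Log2 differences of the 9 tested genes, 48p- minus 10p-HFSCs, relative to the median of all genes tested, under each processing alternative. Black dots are the values as reported, grey bars other settings and orange crosses the fits with 1 library left out. The sign stayed the same in 8 genes, and Irf3 crossed 0 without replicate 2 of 48p-HFSCs.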

How the data were processed

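Polyadenylated RNA was sequenced with a stranded kit in 4 libraries. The authors mapped single-end 101 bp reads to mm10 with TopHat 2.1.1, Bowtie2 and SAMtools and deposited FPKM values computed with Cufflinks. The submitters' processing notes name Bowtie2 2.2.8, SAMtools 0.1.18 and Cuffdiff 2.2.1, and the paper gives other versions of Bowtie2 and SAMtools. The gene annotation is not given in the sources used here. FPKM values are not counts, so no count test was run, and the absolute depth is unknown.

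FPKM values were compared on the log2(FPKM + 1) scale with limma 3.58.1 in R 4.3.3 (variance trend), without further scaling, with adjustment over the 11018 genes that reached an FPKM of 1 in 2 or more libraries. Changes of low genes are understated on this scale. The fit was tested on simulated data. Positions, lengths and GC content came from GENCODE M21 (GRCm38, the assembly of mm10).

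The members and lists were chosen with earlier results of these data known. Named are all members and, per list, at most 5 called genes in each direction with the largest differences. Ratios, motifs and Ticam1, Rnaset2b, Trex1, Samhd1, Adar, Ripk3, Csf1r, Pecam1 and the interferon and Toll-like receptor genes were chosen after their values were seen.

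Alternatives were a pseudocount of 0.1, no filter (genes at 0 in every library left out), a mean FPKM of at least 1, TPM, median-of-ratios and quantile scaling, a constant variance prior, a replicate block, leaving out each library, and, added after the values were seen, a length and GC correction (natural splines, 4 degrees of freedom each) alone and with the replicate block. Median-of-ratios scaling could move little, since the values already stood near that scale.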

Additional observations from a re-analysis of the deposited data

How the results depend on the processing

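With 2 libraries in a group, the spread is poorly known, and a gene that was not called may still have changed. Low FPKM values are least precise in replicate 2 of 48p-HFSCs. Of 14 alternatives, the counts of sensor genes moved under most. Called higher were 2 with a pseudocount of 0.1, after rescaling to TPM and under quantile normalization, and 3 with the length and GC correction, alone and with the replicate block. Called lower was 1 without the filter on low values and after rescaling to TPM. With 1 library left out, 0 to 2 were called higher and 0 to 3 lower. Leaving out a 10p-HFSC library left the wider 48p-HFSC pair as the only measure of spread, and then none of the 9 was called. The log2 difference of Irf3 turned to 0.23 without replicate 2 of 48p-HFSCs and was -0.55 without replicate 1, and the cause was not tested.

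Of the genes around the sensors, 6 were called higher after rescaling to TPM. Called lower were 7 under quantile normalization, 7 with the length and GC correction and 11 with this correction and the replicate block. With 1 library left out, 0 to 13 were called higher and 0 to 10 lower. Over all genes tested, 623 were called higher after rescaling to TPM and 637 lower without the filter, and with 1 library left out 35 to 1936 were called higher and 140 to 1875 lower. Rescaling to TPM moved the median log2 difference of all genes to -0.56, and relative to it Tlr3 was at -2.49, Mavs at -1.56, Ddx58 at 1.16 and Irf3 at -0.17.

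Both groups carry replicate numbers 1 and 2, but 2 pairs are too few to show that the numbers pair the libraries. Across genes, same-numbered libraries deviated together from the group mean with a correlation of 0.408. In the fit with the replicate block, 3 sensor genes were called higher (Zbp1, Ifih1 and Ddx58) and 3 lower (Tlr3, Mavs and Mb21d1), of the genes around them 10 higher and 12 lower, and of all genes 1613 higher and 1497 lower.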
